A study of Mus musculus with 4 samples.

Results

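The 10 genes described here are mouse genes used as markers of primary sensory neurons, the neurons of dorsal root and cranial sensory ganglia. They are listed by name, with no threshold on their values, and were matched through their Entrez identifiers to RNA-seq tables of sympathetic ganglia (SG). All 10 were found among the 17667 genes with reads in at least 1 library. They are *Calca* (Entrez 12310), *Scn10a* (20264), *Scn11a* (24046), *Trpv1* (193034), *P2rx3* (228139), *Avil* (11567), *Prdm12* (381359), *Pou4f1* (18996), *Isl2* (104360) and *Mrgprd* (211578).

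The study asked how neurotrophin-3 (NT-3) made by fat cells and its receptor TRKC, encoded by *Ntrk3*, act on the sympathetic neurons that supply adipose tissue. RNA was taken from SG at the thoracic levels T1 to T4 of C57BL/6 mice aged 12 weeks after 1 day at 5 °C, so every group carried the cold treatment and there was no library from warm mice. There were 4 libraries, 2 of WT mice, 1 of TRKC+/- mice, which carry 1 functional copy of the receptor gene, and 1 of AdNTF3-Tg mice, in which the adiponectin promoter drives NT-3 in adipocytes. Each library was a pool of ganglia from 6 mice, so differences between single mice were not measured. The study describes separate WT controls for each mutant line. The labels give both WT libraries the same genotype without tying either of them to a mutant line, and both therefore served as controls for both mutants. The comparisons of the 2 mutant libraries thus share their controls and are not independent of each other.

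Depth was even, at 8665955 to 8894985 reads on genes per library, and 3 reads amounted to 0.337 to 0.346 CPM (counts scaled to library depth). *Ntrk3* had 78 and 83 reads in the WT libraries, 76 in the AdNTF3-Tg library and 91 in the library labelled TRKC+/-. The targeted gene was therefore not lower in the library labelled TRKC+/- (log2 ratio of reads to both WT libraries with a 95% counting interval of -0.23 to 0.53), and each direction given for that library below rests on its label. *Ntf3*, the gene of NT-3, had 2 reads in the library labelled TRKC+/- and 0 in the 3 others. The tissue carried the markers that define sympathetic neurons. The mean was 2660 FPKM (reads scaled to transcript length and library depth, so that levels can be compared between genes) for *Th*, the rate-limiting enzyme of catecholamine synthesis, and 2144 FPKM for *Dbh*, which makes noradrenaline. The library pools stood apart in skeletal muscle genes. The 5 muscle markers *Acta1*, *Tnnt3*, *Ckm*, *Tnni2* and *Myh4* summed to 69.4 FPKM in WT library 1 and to 2.33 FPKM in WT library 2, with 31.8 in the library labelled TRKC+/- and 26.6 in the AdNTF3-Tg library.

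Primary sensory neurons carry touch, temperature, itch and pain signals from the skin and viscera, including adipose tissue, to the spinal cord. Those of the dorsal root ganglia arise, like sympathetic neurons, from the neural crest. Sensory and sympathetic neurons both depend on neurotrophins, with many muscle spindle afferents relying on NT-3 through TRKC. Many nociceptors are told apart from sympathetic neurons by 2 tetrodotoxin-resistant sodium channels, by ligand-gated and heat-gated cation channels and by the homeodomain and zinc finger factors that specify them. Peptidergic nociceptors also send fibres that pass through or near sympathetic ganglia.

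RefSeq (GRCm38.p6) held a promoter for 9 of the 10 genes, with 250 bases before and 50 bases after the annotated start. Those of *Avil*, the member with the highest level, and of *Calca* and *Scn10a*, members whose levels differed between libraries by more than counting error, are printed 5′ to 3′. Capitals mark the E-box letters CANNTG, read on both strands, the core bound by basic helix-loop-helix factors such as those that start sensory and sympathetic neurogenesis. The windows are chr10:127000459-127000758 on the plus strand for *Avil*, chr7:114636308-114636607 on the minus strand for *Calca* and chr9:119718983-119719282 on the minus strand for *Scn10a*.
Avil: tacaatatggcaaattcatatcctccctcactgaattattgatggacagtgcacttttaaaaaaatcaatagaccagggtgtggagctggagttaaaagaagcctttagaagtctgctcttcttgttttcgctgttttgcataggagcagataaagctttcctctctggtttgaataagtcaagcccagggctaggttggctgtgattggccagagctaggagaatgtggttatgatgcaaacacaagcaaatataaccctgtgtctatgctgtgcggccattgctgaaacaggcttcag
Calca: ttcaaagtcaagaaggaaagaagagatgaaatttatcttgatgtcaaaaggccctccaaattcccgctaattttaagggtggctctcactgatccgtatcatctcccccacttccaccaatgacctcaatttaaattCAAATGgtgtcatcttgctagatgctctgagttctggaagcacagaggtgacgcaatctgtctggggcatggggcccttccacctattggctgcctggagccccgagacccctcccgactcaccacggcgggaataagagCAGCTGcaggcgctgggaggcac
Scn10a: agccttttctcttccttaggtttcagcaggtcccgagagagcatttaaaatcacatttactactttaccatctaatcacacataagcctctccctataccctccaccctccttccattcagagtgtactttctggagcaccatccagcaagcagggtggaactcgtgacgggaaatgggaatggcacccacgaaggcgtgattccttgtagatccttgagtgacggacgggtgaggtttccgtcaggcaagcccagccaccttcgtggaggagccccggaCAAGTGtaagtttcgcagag
The *Avil* window held 0 E-boxes, that of *Calca* 2 and that of *Scn10a* 1. An E-box was present in 6 of the 9 promoters, against 72.3% of 32851 promoters of the same length. The homeodomain core TAATTA was in 0 of 9 (5.29% of all promoters) and the TATA box TATAAA in 0 of 9 (13.6%). The cAMP response element TGACGTCA was in 1 of 9, that of *Isl2* (1.79%). These letters describe the windows only.

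The levels of the 10 markers in the ganglia covered a wide range, with 1 gene high, 1 moderate and 8 low. *Avil* averaged 201 FPKM over the 4 libraries and stood above 97.9% of the listed genes. *Calca* averaged 4.06 FPKM and the other 8 genes between 0.105 and 0.920 FPKM. In descending order these were *P2rx3*, *Scn11a*, *Scn10a*, *Trpv1*, *Isl2*, *Prdm12*, *Mrgprd* and *Pou4f1*. The range of *Avil* over the 4 libraries lay above that of *Calca*, and the range of *Calca* above that of *P2rx3*, with means 49.4-fold and 4.42-fold apart. From *P2rx3* downward, each gene's range overlapped that of the next, so neighbours in that order did not differ beyond the spread between libraries. Genes further apart did in part, since *P2rx3*, at 0.750 FPKM or more, lay above the highest value of every gene from *Scn10a* downward. Because the ganglia were sequenced as bulk tissue, fewer cells of a type and less RNA per cell cannot be told apart in any of these values.

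**Figure D1:**
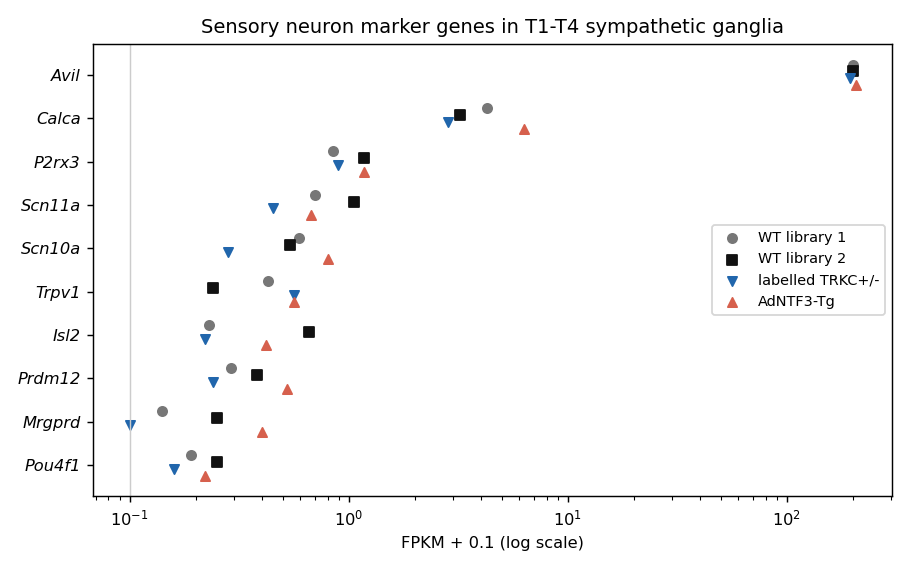
FPKM + 0.1 (log scale, horizontal axis) of the 10 marker genes (vertical axis) in the 4 libraries, 1 symbol per library with no error bars. *Avil* sat near 201 FPKM in all 4 libraries, *Calca* between 2.75 and 6.19 FPKM, and the other 8 genes at or below 1.07 FPKM. A symbol on the grey line at 0.1 had no reads.

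Against other genes, the markers sat far below those of the sympathetic neurons. The 11 sympathetic genes averaged between 9.72 and 2660 FPKM each. The 9 markers other than *Avil* summed to 6.80 and 6.88 FPKM in the WT libraries, 4.85 in the library labelled TRKC+/- and 10.15 in the AdNTF3-Tg library. *Avil* alone made up 95.3% to 97.6% of the summed FPKM of the 10 genes.

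**Figure D2:**
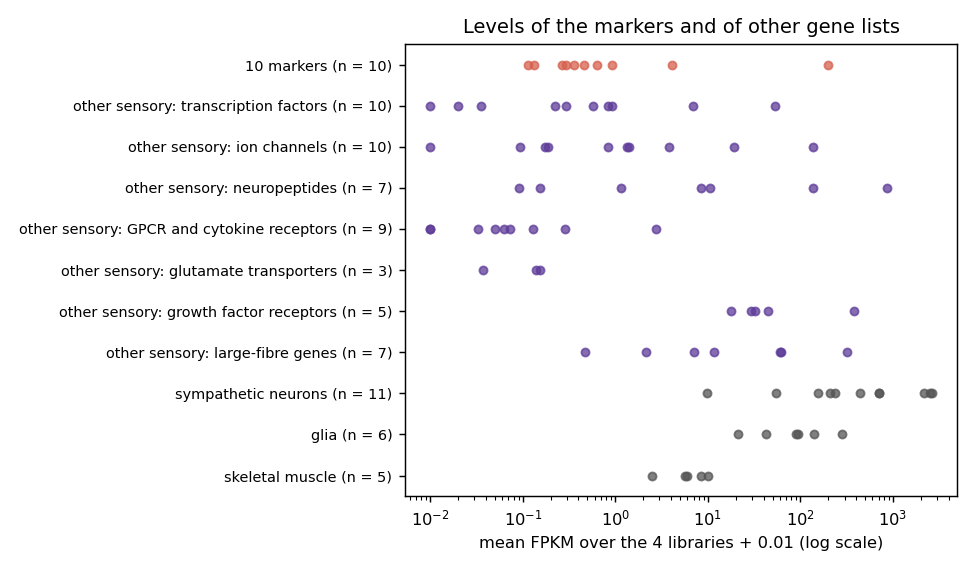
Mean FPKM over the 4 libraries plus 0.01 (log scale), with 1 point per gene, for the 10 markers, 7 role groups of other sensory neuron genes, and sympathetic, glial and skeletal muscle markers. The highest marker, *Avil* at 201 FPKM, lay within the range of the sympathetic genes, and the other 9 lay below their lowest member at 9.72 FPKM.

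*Avil* (chr10:126437765-126458050, plus strand, NCBIM37) encodes advillin, an actin-binding protein of the gelsolin and villin family that is known from sensory neurons and also from other neurons of neural crest origin. It had 200.64 and 200.43 FPKM in the WT libraries, 194.74 in the library labelled TRKC+/- and 207.04 in the AdNTF3-Tg library, from 5159 to 5412 reads. It was the steadiest of the 10 genes, and its highest and lowest libraries were 1.06-fold apart. The log2 ratio of its reads to those of both WT libraries was 0.04 (95% counting interval -0.01 to 0.09) in the AdNTF3-Tg library and -0.04 (-0.09 to 0.01) in the library labelled TRKC+/-. At this depth, a difference in *Avil* beyond counting error was not detectable. The gene shares 165 of its 3398 exon bases with *Tsfm*, a mitochondrial translation factor on the opposite strand with 175 to 187 reads, and whether counting used strand is not given in the sources used here.

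*Calca* (chr7:121774994-121779871, minus strand) encodes calcitonin and, by another splice form, the neuropeptide CGRP of peptidergic nociceptors. It had 4.18 FPKM (35 reads) in WT library 1, 3.13 (26 reads) in WT library 2, then 2.75 (23 reads) in the library labelled TRKC+/- and 6.19 (52 reads) in the AdNTF3-Tg library. The AdNTF3-Tg library was above both WT libraries and the library labelled TRKC+/- below both. The log2 fold change, computed on FPKM + 0.1 against the WT mean of 3.66 ± 0.742 FPKM (SD, n = 2), was 0.74 in the AdNTF3-Tg library and -0.40 in the library labelled TRKC+/-. By reads, the AdNTF3-Tg ratio was 0.76 on the log2 scale with a counting interval of 0.20 to 1.32. Against WT library 1 alone the interval was -0.10 to 1.21 and thus included 0, and against WT library 2 it was 0.30 to 1.75. In the library labelled TRKC+/- the interval against both WT libraries was -1.19 to 0.28.

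The tetrodotoxin-resistant sodium channel genes *Scn10a* and *Scn11a*, which lie next to each other on chromosome 9 (chr9:119517584-119603478 and chr9:119662881-119734574, both minus strand), carry the sodium current of nociceptors. *Scn10a* had 27 and 25 reads in the WT libraries, 10 in the library labelled TRKC+/- and 39 in the AdNTF3-Tg library, or 0.490, 0.440, 0.180 and 0.700 FPKM. The WT libraries were close (0.465 ± 0.0354 FPKM, SD, n = 2), with the library labelled TRKC+/- below them and the AdNTF3-Tg library above. *Scn11a* had 30 and 49 reads in the WT libraries, 18 in the library labelled TRKC+/- and 29 in the AdNTF3-Tg library, or 0.600, 0.960, 0.350 and 0.570 FPKM. For this gene both mutant libraries lay below both WT libraries, the AdNTF3-Tg library by 1 read below WT library 1.

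In the library labelled TRKC+/-, the log2 ratio of reads to both WT libraries was -1.40 (counting interval -2.54 to -0.41) for *Scn10a* and -1.16 (-1.98 to -0.40) for *Scn11a*. *Scn10a* stayed below each WT library taken alone, with intervals of -2.68 to -0.38 and -2.55 to -0.22. *Scn11a* did so against WT library 2 (-2.32 to -0.65) but not against WT library 1 (-1.70 to 0.12). In the AdNTF3-Tg library the ratios were 0.58 (-0.06 to 1.20) for *Scn10a* and -0.45 (-1.12 to 0.18) for *Scn11a*, and both intervals included 0. The ratio of *Scn10a* to *Scn11a* reads within a library was -0.15, -0.97, -0.85 and 0.43 on the log2 scale in WT libraries 1 and 2, the library labelled TRKC+/- and the AdNTF3-Tg library. The WT libraries themselves thus differed in this ratio, with overlapping intervals of -0.96 to 0.65 and -1.73 to -0.25.

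*P2rx3* (chr2:84838740-84877619, minus strand) encodes the ATP-gated channel P2X3 of nonpeptidergic nociceptors. Its level was 0.750 and 1.07 FPKM in the WT libraries, 0.790 in the library labelled TRKC+/- and 1.07 in the AdNTF3-Tg library, from 27, 39, 29 and 39 reads. Both mutant libraries fell within the range of the WT libraries. The counting intervals against both WT libraries were -0.38 to 0.83 for the AdNTF3-Tg library and -0.89 to 0.44 for the library labelled TRKC+/-. Its exons share 51 bases with *Ssrp1* on the opposite strand, a chromatin factor with 864 to 902 reads.

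*Trpv1* (chr11:73047794-73074744, plus strand) encodes the capsaicin and heat receptor. It had 7 and 3 reads in the WT libraries and 10 in each mutant library, or 0.330, 0.140, 0.460 and 0.460 FPKM. Both mutant libraries were above both WT libraries, and *Trpv1* was the 1 member with this order. The intervals were -0.43 to 2.41 and -0.44 to 2.40 and included 0, as did the interval of the WT libraries against each other, -3.84 to 0.88.

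*Mrgprd* (chr7:152500740-152509964, plus strand) encodes a G protein-coupled receptor of nonpeptidergic nociceptors that responds to beta-alanine. It had 1 and 4 reads in the WT libraries, 8 in the AdNTF3-Tg library and 0 in the library labelled TRKC+/-, where up to 3 reads, or 0.337 CPM, would still be within counting error. The AdNTF3-Tg interval was -0.12 to 3.63. No fold is given for the library labelled TRKC+/-, since both sides lie at or near the floor of 3 reads.

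The 3 transcription factor genes had between 14 and 22 reads each over the 4 libraries. *Prdm12* (chr2:31495557-31511315, plus strand), a zinc finger regulator required for nociceptors to form, had 4 and 6 reads in the WT libraries, 3 in the library labelled TRKC+/- and 9 in the AdNTF3-Tg library. *Isl2* (chr9:55386479-55393987, plus strand), a LIM-homeodomain factor, had 2 and 9 reads in the WT libraries, 2 in the library labelled TRKC+/- and 5 in the AdNTF3-Tg library. *Pou4f1* (chr14:104862737-104867216, minus strand), which encodes the POU-homeodomain factor BRN3A of nearly all sensory neurons, had 3 and 5 reads in the WT libraries, 2 in the library labelled TRKC+/- and 4 in the AdNTF3-Tg library. *Pou4f1* was the lowest of the 10 members by mean level, at 0.105 FPKM. For all 3 factors the counting intervals of both mutant libraries included 0 and reached from -4.70 to 2.29 on the log2 scale, and differences between libraries were not detectable at this depth.

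**Figure D3:**
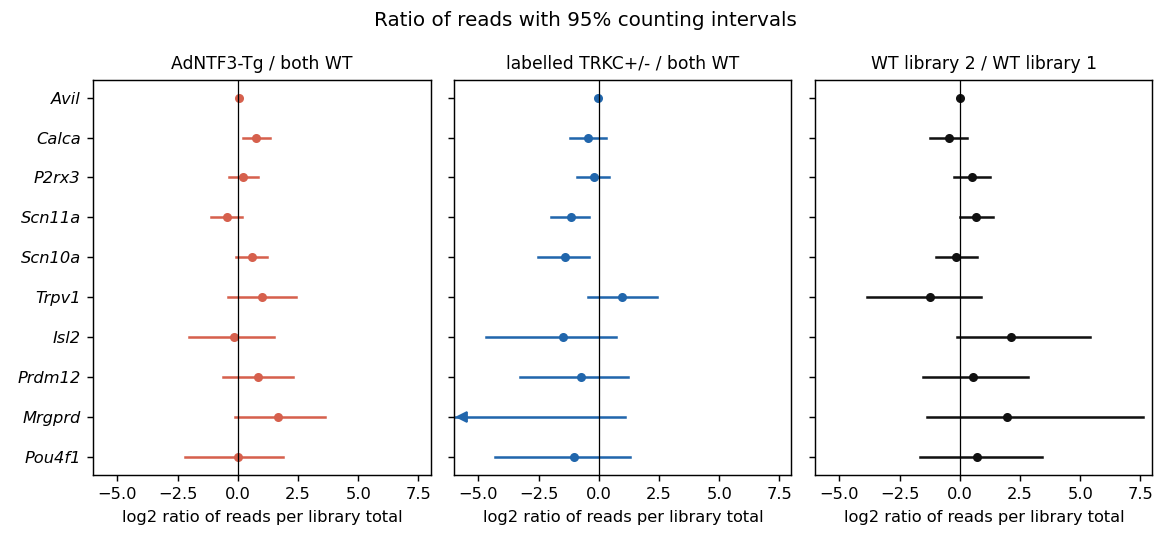
Log2 ratio of reads per library total (horizontal axis) for the 10 genes with exact 95% counting intervals (bars), for the AdNTF3-Tg library and the library labelled TRKC+/- against both WT libraries, and for WT library 2 against WT library 1. The intervals of *Calca* (0.20 to 1.32) in the AdNTF3-Tg library and of *Scn11a* and *Scn10a* in the library labelled TRKC+/- lay off 0. The arrow marks *Mrgprd*, which had no reads in the library labelled TRKC+/-.

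Counted gene by gene, 5 of the 10 members passed an absolute log2 fold change of 0.5 upward in the AdNTF3-Tg library against the WT mean, namely *Calca*, *Scn10a*, *Trpv1*, *Prdm12* and *Mrgprd*. Over the 15288 genes with at least 10 reads in total, 4.28% passed upward. Of the 2968 genes with as few reads as the 9 members without *Avil* (13 to 136 in total), 14.8% did. Downward, 0 members passed, against 7.29% of all genes and 25.2% of those with similar reads. *Scn10a* lay just inside the cutoff at 0.50, and *Scn11a*, at -0.39, was the member nearest to the cutoff on the lower side. *Mrgprd* had 5 reads in the 3 other libraries and met the minimum of 10 only through the AdNTF3-Tg library. With that minimum set over the 3 other libraries, 4 members and 3.46% of all genes passed upward. Against WT library 1 alone 4 members passed upward and 0 downward (5.82% and 8.72% of all genes). Against WT library 2 alone 4 passed upward and 2, *Scn11a* at -0.66 and *Isl2* at -0.65, downward (6.59% and 7.43%). When the cutoff had to be met against each WT library, *Calca* and *Mrgprd* were the 2 members left upward, or *Calca* alone without *Mrgprd* (2.28% of all genes, 8.39% of those with similar reads) and 0 passed downward (3.99% and 14.9%).

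In the library labelled TRKC+/-, 4 members passed downward, *Scn11a*, *Scn10a*, *Isl2* and *Mrgprd*, against 5.32% of all genes and 19.6% of those with similar reads. The value for *Mrgprd* rests on 0 reads and depends on the pseudocount, and 3 members passed downward without it. *Trpv1* was the 1 member that passed upward (3.72% of all genes and 14.1% of those with similar reads). Against each WT library, *Scn11a* and *Scn10a* were the 2 members left downward (2.77% and 10.5%) and 0 passed upward (1.84% and 7.21%). Between the WT libraries themselves 4 members passed, *Scn11a*, *Isl2* and *Mrgprd* higher and *Trpv1* lower in WT library 2, against 13.9% of all genes and 44.6% of those with similar reads. By direction, 5.83% of all genes were higher and 8.05% lower in WT library 2, and 19.1% and 25.5% of those with similar reads. A fold of this size was thus common among genes with so few reads when libraries of the same genotype were compared.

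The median log2 fold change of the 10 members against the WT mean was 0.36 in the AdNTF3-Tg library, or 0.21 without *Mrgprd*. It was -0.47 in the library labelled TRKC+/-, or -0.46 without *Mrgprd*. The median over all 15288 genes was -0.0032 and 0 in these comparisons, and WT library 2 against WT library 1 gave a median of 0.39 for the members. Against WT libraries 1 and 2 taken alone, the median of the members was 0.45 and 0.25 in the AdNTF3-Tg library. In the library labelled TRKC+/- these medians were -0.26 and -0.65. The library labelled TRKC+/- had the lowest FPKM of the 4 libraries for 8 of the 10 members, against 21.0% of all genes and 23.1% of those with similar reads. *P2rx3* and *Trpv1* were the exceptions. Among the 8, *Isl2* had 2 reads both in that library and in WT library 1. For *Pou4f1*, *Prdm12* and *Mrgprd* the reads were 2, 3 and 0, against 3, 4 and 1 in WT library 1. The counting intervals of that library against both WT libraries lay off 0 for *Scn11a* and *Scn10a* and included 0 for the other members. The AdNTF3-Tg library had the highest FPKM for 5 of the 10, against 27.0% and 22.4%.

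In a model fitted across all 15288 genes (edgeR's quasi-likelihood test with Benjamini-Hochberg adjustment), 0 of the 10 members passed an adjusted p of 0.05 in either comparison, as did 0.00% of all genes. The 2 WT libraries were the only replicates, so the test took the spread of the mutant groups from them. The lowest adjusted p among the members was 0.816 in the AdNTF3-Tg library and 0.999 in the library labelled TRKC+/-. At an unadjusted p under 0.05 there were 0 members in the AdNTF3-Tg library (4.94% of all genes) and 1, *Scn10a*, in the library labelled TRKC+/- (1.76% of all genes). The members with the next lowest p were *Scn11a* in the library labelled TRKC+/- and *Calca* in the AdNTF3-Tg library. DESeq2 called 0 members in both comparisons, as it did 0.00% of all genes in the AdNTF3-Tg library and 0.0131% in the library labelled TRKC+/-. By this tool 0 members had an unadjusted p under 0.05, against 0.412% and 0.137% of all genes.

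Added together, the 9 markers other than *Avil* had 136 reads in WT library 1, 166 in WT library 2, then 97 in the library labelled TRKC+/- and 195 in the AdNTF3-Tg library, or 15.7, 18.8, 10.9 and 22.1 CPM. The library labelled TRKC+/- was the lowest and the AdNTF3-Tg library the highest, with the WT libraries between them. The log2 ratio to both WT libraries was -0.66 (counting interval -1.01 to -0.33) in the library labelled TRKC+/- and 0.36 (0.09 to 0.63) in the AdNTF3-Tg library. The library labelled TRKC+/- lay below each WT library, by -0.53 (-0.92 to -0.14) and -0.78 (-1.16 to -0.41). The AdNTF3-Tg library lay above WT library 1 by 0.50 (0.17 to 0.82), but its interval against WT library 2 (-0.07 to 0.55) included 0. The WT libraries differed from each other by 0.26 (-0.08 to 0.60). These intervals hold counting error only, and the variation between pools of mice is known from the 1 WT pair alone.

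**Figure D4:**
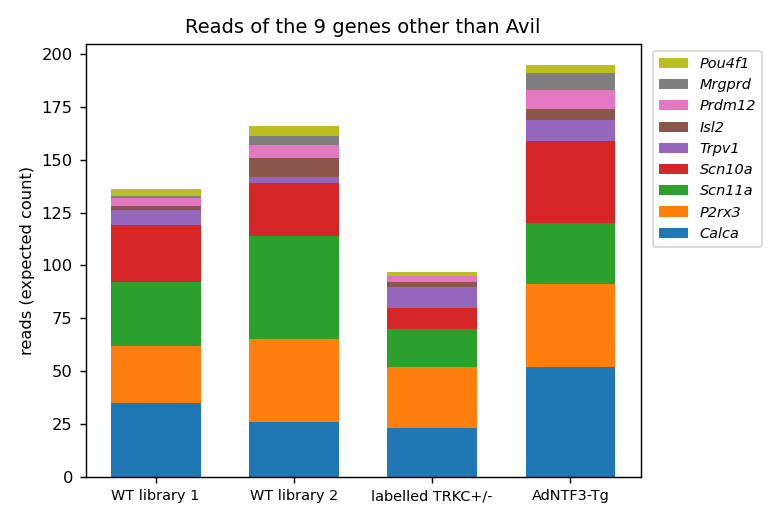
Reads (expected counts, vertical axis from 0) of the 9 markers other than *Avil*, stacked by gene, in the 4 libraries, with no error bars. The stacks reach 136 and 166 reads in the WT libraries, 97 in the library labelled TRKC+/- and 195 in the AdNTF3-Tg library, and most of each stack is *Calca*, *P2rx3*, *Scn11a* and *Scn10a*.

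The mix of genes within this sum was not the same in all libraries. *Calca*, *P2rx3*, *Scn11a* and *Scn10a* together held 81.5% to 87.5% of the reads in each. The share of *Calca* was 25.7% and 15.7% in the WT libraries, 23.7% in the library labelled TRKC+/- and 26.7% in the AdNTF3-Tg library. The share of *P2rx3* was highest in the library labelled TRKC+/-, at 29.9%, against 19.9% to 23.5% elsewhere, and that of *Scn11a* highest in WT library 2, at 29.5%. In the same libraries the sympathetic list summed to 9965 and 9808 FPKM (WT), 10111 (labelled TRKC+/-) and 9460 (AdNTF3-Tg). The 6 glial genes summed to 741, 556, 705 and 665 FPKM in the same order. The muscle sums given above ran from WT library 1 at the top to WT library 2 at the bottom, an order that the 9 markers did not share. The part of muscle, glia or dissection in the differences between the markers was not tested.

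*Scn10a* had the widest pattern over the 4 libraries among the members with at least 20 reads in a library, with a range of 1.51 on the log2(FPKM + 0.1) scale. Among the 12765 genes that averaged 1 FPKM or more, the 3 with the most similar centred pattern were *Tac1*, *BC064078* and *Pstpip2*, at mean absolute differences of 0.0258, 0.0270 and 0.117 over the 4 libraries. *Tac1* encodes the precursor of substance P and neurokinin A. It had 9.14 and 7.95 FPKM in the WT libraries, 4.27 in the library labelled TRKC+/- and 12.11 in the AdNTF3-Tg library, from 78, 68, 37 and 103 reads. *BC064078* had 4 to 13 reads and *Pstpip2* 23 to 54. With 4 libraries, such a likeness is a description of these values.

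A further list of 51 sensory neuron genes, grouped by role, placed the 10 members among the rest. Reads were found for 47 of them, and 38 passed the filter of 10 reads in total. *Trpm8*, the cold and menthol receptor, *Mrgprx1*, *Mrgprb5* and *Neurog1* had 0 reads in all 4 libraries, which allows up to 3 reads in each. Past a log2 fold change of 0.5 against the WT mean were 9 genes upward and 4 downward in the AdNTF3-Tg library, 3 and 5 in the library labelled TRKC+/-, and 4 and 5 in WT library 2 against WT library 1. Over all genes the shares upward and downward were 4.28% and 7.29%, 3.72% and 5.32%, and 5.83% and 8.05%. Of the 9 upward genes in the AdNTF3-Tg library, 6 (*Drgx*, *Trpa1*, *Asic3*, *Lpar3*, *Lpar5* and *Slc17a7*) met the minimum of 10 reads only through that library, and 3 of 32 genes passed upward when the minimum was set over the 3 other libraries. The median log2 fold change of the 38 genes was 0.08 in the AdNTF3-Tg library and -0.0049 in the library labelled TRKC+/-, beside 0.36 and -0.47 for the 10 members. In the edgeR model 0 of them passed an adjusted p of 0.05. *Lpar3* and *Slc17a6* in the AdNTF3-Tg library and *Tac1*, *Sst* and *Slc17a6* in the library labelled TRKC+/- had an unadjusted p under 0.05, as did 4.94% and 1.76% of all genes.

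The highest genes of each role include several that sympathetic neurons are also known to use, such as *Gal* and *Isl1*. Among growth factor receptors, *Ret* averaged 44.2 FPKM and *Ntrk2* 32.4. Among neuropeptides, *Gal* averaged 871 FPKM, *Adcyap1* 136 and *Sst* 10.4. The serotonin-gated channel *Htr3a* averaged 136 FPKM, the sodium channel *Scn9a* 19.3 and the ATP-gated channel *P2rx2* 3.80. The transcription factors *Isl1*, *Etv1* and *Runx1* averaged 53.2, 6.83 and 0.910 FPKM. Of the large-fibre genes, *Fxyd2* averaged 318 FPKM, the heavy neurofilament gene *Nefh* 61.8 and *Spp1* 59.6. The last 2 groups were low. The G protein-coupled and cytokine receptor genes *Osmr*, *Lpar5* and *Lpar3* averaged 2.77, 0.278 and 0.120 FPKM, and the vesicular glutamate transporter genes *Slc17a6*, *Slc17a7* and *Slc17a8* 0.145, 0.128 and 0.0275 FPKM.

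Several of these genes passed the cutoff against both WT libraries. In the AdNTF3-Tg library the genes that were higher were *Drgx*, *Tlx3*, *Trpa1*, *Asic3*, *Kcnk18*, *Lpar3*, *Lpar5*, *Slc17a7* and *Calb1*, and *Slc17a6* was lower. Over all genes, 2.28% passed upward and 3.99% downward by this rule. *Drgx*, *Trpa1*, *Asic3*, *Lpar3*, *Lpar5* and *Slc17a7* met the minimum of 10 reads only through the AdNTF3-Tg library. Of the higher genes, *Tlx3*, a homeodomain factor of nociceptor development, had 18 reads against 7 and 10 in the WT libraries, with a counting interval of 0.03 to 2.12. *Trpa1*, the irritant receptor, had 8 reads against 1 and 3, and *Asic3*, an acid-sensing channel, 8 reads against 2 and 0. In the library labelled TRKC+/- *Shox2*, *Kcnk18* and *Sst* were higher and *Tac1* and *Slc17a6* lower (1.84% and 2.77% of all genes). *Tac1* had an interval of -1.56 to -0.47 and *Sst*, which encodes somatostatin, one of 0.38 to 1.32, from 76 reads against 41 and 42. *Kcnk18*, a background potassium channel, had 27 and 25 reads in the WT libraries and 45 and 41 in the mutant libraries. *Slc17a6*, the vesicular glutamate transporter of most sensory neurons, had 9 and 10 reads in the WT libraries, 1 in the library labelled TRKC+/- and 2 in the AdNTF3-Tg library. In the AdNTF3-Tg library *Slc17a6* was thus low while *Calca*, *Scn10a* and *Tac1* were at their highest.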

How the data were processed

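Per the study's methods, poly(A) RNA was selected with oligo(dT) and read from 1 end for 50 bases. Reads were cleaned with SOAPnuke 1.5.2 and aligned to mm9 with HISAT2 2.0.4. The submitters' processing notes name RSEM and mm10, and the build was not settled here. The authors deposited unnormalized expected counts per Entrez gene, of which 92.6% to 93.7% per library were whole. The authors also deposited an FPKM value, that count scaled to gene length and library reads. A gene missing from a table was taken as 0.

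The members and the other gene lists were chosen with earlier results of these data known. Fold changes are log2((mutant FPKM + 0.1)/(mean WT FPKM + 0.1)) with a cutoff of 0.5, over 15288 genes with at least 10 reads in total. Exact Clopper-Pearson 95% intervals of read shares and the 3-read floor cover counting error only. Counts rounded to whole numbers entered edgeR 4.0.16 (quasi-likelihood, all 4 libraries, 1 residual degree of freedom), tested on simulated data, with DESeq2 1.42.0 as alternative. The p-values rest on the spread between the 2 WT libraries, moderated across genes, and hold no spread within a mutant group. Named genes are the 10 members, *Ntrk3*, *Ntf3*, *Th*, *Dbh*, the 3 highest of each sensory role, those past the cutoff against both WT libraries and the 3 most like *Scn10a*. A few genes that this rule names are not reported here. Symbols came from a RefSeq table on GRCm38.p6 (names only, 99.7% of identifiers matched), and gene positions from GENCODE on NCBIM37. Python 3.11.15, pandas 2.3.3, scipy 1.17.1 and R 4.3.3 were used.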

Additional observations from a re-analysis of the deposited data

How the results depend on the processing

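No paired analysis was possible because the TRKC+/- and AdNTF3-Tg groups had 1 library each, and leaving out a WT library left edgeR no residual degree of freedom, so that fit was not run. The 5 members past the cutoff in the AdNTF3-Tg library became 1 with a pseudocount of 1, 1 when a mean level of 1 FPKM was required and 1 by counting intervals off 0 (chosen after seeing the data), and 4 to 6 with a WT library left out (4 higher and 2 lower, *Scn11a* and *Isl2*, without WT library 1). The 5 in the library labelled TRKC+/- became 0, 0, 2 and 3 to 7, with 3 without WT library 2 and 7 without WT library 1. The 4 between the WT libraries became 0, 0 and 0, and 7 with a pseudocount of 0.01. Of the other sensory genes, 13 in the AdNTF3-Tg library became 2 with a pseudocount of 1, 3 with the level filter, 7 (3 higher and 4 lower) with the minimum of 10 reads set over the 3 other libraries (also chosen after seeing the data) and 14 to 14 without a WT library. The 8 in the library labelled TRKC+/- became 3, 3 and 5 by intervals, 13 with no read filter and 8 to 15 without a WT library. The summed log2 ratio of the 10 genes was 0.0667 and -0.0552 in the AdNTF3-Tg library and the library labelled TRKC+/-. It was 0.5694 and -0.496 without *Avil*, 0.0582 and -0.0582 after TMM scaling, and 0.0663 to 0.0672 and -0.0557 to -0.0548 without a WT library. In the library labelled TRKC+/- the count of all genes called by edgeR, 0, was 2 with DESeq2 and with at least 40 reads (*Ucp1* and *Npcd*) and 1 with DESeq2 size factors. In the AdNTF3-Tg library it was 0 in these. No member past the cutoff against the WT mean changed sign under these alternatives. Among the others, *Isl2* in the AdNTF3-Tg library went from -0.08 to 0.87 and *P2rx3* in the library labelled TRKC+/- from -0.18 to 0.07 without WT library 2, while *Pou4f1* in the AdNTF3-Tg library went from 0 to -0.18 or 0.21 without WT library 1 or 2.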

Other observations

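Genes of the spinal cord and of its motor neurons spanned a wide range of levels. *Mnx1*, a motor neuron factor, had 0 reads in all 4 libraries, and *Chat*, the enzyme of acetylcholine synthesis, averaged 0.753 FPKM, while *Prph*, an intermediate filament gene that sympathetic neurons also express, averaged 911 FPKM. The myelin gene *Mog*, made by oligodendrocytes, was at or below 0.340 FPKM in every library. *Gfap*, which glia of the cord and satellite cells both can express, averaged 12.5 FPKM. Of the other central nervous system and motor neuron genes examined, *Aldh1l1* averaged 5.11 FPKM, *Gad2* 4.61, *Slc5a7* 2.36 and *Gad1* 0.035. The length deposited for *Calca*, which has 2 transcripts, was 1015.9 and 1005.83 bases in the WT libraries, 1000.18 in the library labelled TRKC+/- and 1022 in the AdNTF3-Tg library. *Pvalb*, a marker of large-fibre proprioceptors that fast skeletal muscle also makes, had 40 reads in WT library 1 and 0 in WT library 2, the libraries with the highest and the lowest sum of skeletal muscle markers, with 16 in the library labelled TRKC+/- and 8 in the AdNTF3-Tg library. The source of the *Pvalb* reads was not tested.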
